A study of Homo sapiens with 4 samples.

Results

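Interferon-stimulated genes are a set of 48 genes that cells switch on when interferon binds its receptors, and they were read here in OVSAYO cells, an established line of ovarian clear cell carcinoma (CCC). Members were fixed by gene symbol, and a probe belonged to a member when the RefSeq accession on the array mapped to that symbol. Of the 48 genes, 46 had at least 1 probe, out of 17721 genes with a probe on the array, and IFI27 and CMPK2 had no matched probe. RNA was hybridised to 4 one-colour arrays, 1 per condition. NS-si cells received a non-specific control siRNA (Silencer, Ambion), and Sp1-si cells received an siRNA pool against the transcription factor Sp1 (Dharmacon). All cells were transfected with lipofectamine and cultured for 40 h. NS-si → CoCl2 and Sp1-si → CoCl2 cells then had 0.5 mM CoCl2, a salt that stabilises hypoxia-inducible factors in normal oxygen, for 4 h, while the other two cultures had none. The suppliers are those of the labels, while the supplementary methods of the paper name Santa Cruz Biotechnology for the Sp1 siRNA. By the labels the control and Sp1 siRNAs came from different suppliers, while the supplementary methods also list a further non-specific siRNA without its supplier. Both Sp1-si cultures had the same Sp1 siRNA reagent, so that Sp1 silencing and any other effect of that reagent cannot be told apart. With 1 array per condition no difference has a replicate check, no p-value was computed, and every ratio below compares 2 arrays of these particular cultures. In bulk RNA, fewer cells expressing a gene and less RNA per cell cannot be told apart.

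Type I and type III interferons signal through JAK kinases to a complex that holds STAT2 and IRF9, which binds a DNA element called the interferon-stimulated response element (ISRE). Interferon-gamma acts through another element, the gamma-activated site (GAS), and IRF1, itself a target, binds elements like the ISRE. The products include proteins that block virus entry, translation and replication, sensors of foreign RNA, and feedback inhibitors. Sp1 binds GC-rich boxes in the promoters of many genes.

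Each level is a scaled signal, that is, the array's processed signal after every array was brought to a common 75th percentile, and each ratio is a difference of log2 scaled signals. Ratios compare arrays for 1 probe. Signals of different probes are not compared as amounts of RNA, and are ranked or summed only to choose probes and to describe marker lists. Where a gene had several probes, the one with the highest signal on average stands for it. A gene was called higher or lower at a log2 ratio of 1 or more in size (2-fold) with the brighter array well above background, and a dim side that was not well above background was set to a bound. Members had 1 spot per probe. The error in brackets after a ratio is therefore the spot SD, the SD that probes of like signal with 10 spots each showed between spots on these arrays, and it covers spot error only. It was 0.0237 for the brightest and 0.364 for the dimmest such probes in the Sp1-si over NS-si ratio. Of the 46 genes, 41 were well above background on all 4 arrays and 3 on some of them (OAS1, IFI44 and EPSTI1). RSAD2 and HERC5 were well above background on none.

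The 75th percentile of the processed signal was 1142 on the NS-si, 1100 on the Sp1-si, 977 on the NS-si → CoCl2 and 1285 on the Sp1-si → CoCl2 array, and all 4 arrays lay on 1 slide. SP1 itself, read by a probe with 10 spots, had a scaled signal of 542.7 with NS-si, 39.9 with Sp1-si, 492.5 with NS-si → CoCl2 and 33.7 with Sp1-si → CoCl2, log2 ratios of -3.77 (0.11) without and -3.87 (0.099) with CoCl2. The clear cell carcinoma markers NAPSA, KRT7, PAX8 and EPCAM were well above background on the 4 arrays. NAPSA had 5034 with NS-si, 1002 with Sp1-si, 4402 with NS-si → CoCl2 and 841 with Sp1-si → CoCl2, log2 ratios of -2.33 and -2.39, so that a marker of the tumour type was lower where most members were higher. Of 3 genes usually low in these tumours, WT1 was well above background on no array, while the brightest ESR1 and PGR probes were on all 4, at 48.7 to 54.7 and 26.2 to 42.4. Of 5 leukocyte markers, 4 were well above background on the 4 arrays and PTPRC, the pan-leukocyte marker, was on none. Their summed signal was 1145 with NS-si, 662 with Sp1-si, 1404 with NS-si → CoCl2 and 824 with Sp1-si → CoCl2, with CD68, a macrophage marker also made by other cells, at 706.2, 252.6, 901.1 and 350.1 of it. Of the 3 fibroblast markers with a probe, 1 was well above background, with summed signals between 19.9 and 35.8. The leukocyte sum was lower in Sp1-si cells, where most interferon-stimulated genes were higher. The part of NAPSA and of the leukocyte markers in the results was not tested.

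Interferon-stimulated genes were mostly higher after Sp1 silencing. Without CoCl2, 13 of 44 genes were called higher and 1 was called lower, beside 6.21% called higher and 6.19% called lower over all genes. The median log2 ratio of the 42 measured members was 0.54, with 37 above 0, against a median of -0.01 over all genes. With CoCl2, 14 of 43 genes were called higher and 1 lower, beside 7.17% and 8.06% over all genes. There the median over 41 measured members was 0.42, with 30 above 0, against -0.02 over all genes. Both pairs of arrays are separate, and 10 of 43 members were called higher in both of them (IFIT5, OASL, IFITM1, IFITM2, IFITM3, BST2, IRF1, TRIM22, IFI6 and SAMD9L), beside 4.28% over all genes. EPSTI1 was called lower in both, beside 4.12% over all genes. Across the 41 members measured on all arrays, the log2 ratios of the 2 pairs had a Pearson correlation of 0.890 and a Spearman correlation of 0.827, against 0.822 and 0.760 over 14288 genes. Genes are not independent replicates, and both pairs share the slide and the siRNA reagents.

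**Figure D1:**
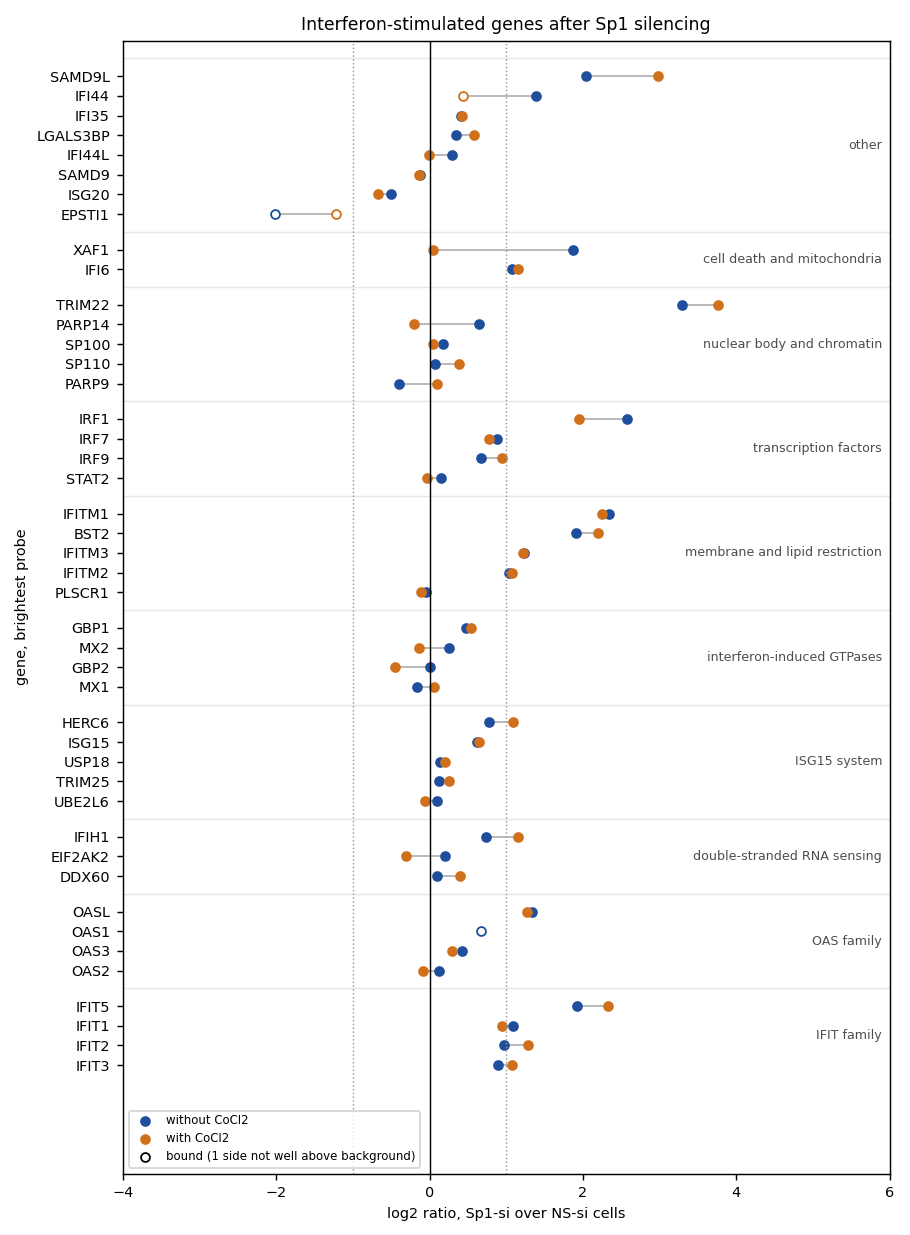
Log2 ratio of Sp1-si over NS-si cells for each interferon-stimulated gene by its brightest probe, without CoCl2 (blue) and with CoCl2 (orange), grouped by role, from 1 array per condition. Open circles are bounds where 1 side was not well above background, dotted lines mark a 2-fold difference, and the TRIM22 points lie furthest to the right at 3.29 and 3.76 while EPSTI1 alone lies beyond the lower line.

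The sequence before the start of these genes is shown because the ISRE core and the GAS are the elements by which interferon signalling reaches them, and the GC box is the element Sp1 is known to bind. The 250 bases before each start site in RefSeq (GRCh38.p14) were searched on both strands for the ISRE core (GAAA, any 2 bases, GAAA), the GAS TTCNNNGAA and the GC box GGGCGG. An ISRE core was found in 25 of the 39 members with a promoter entry (64.1%), beside 3.71% of all 27305 genes. A GAS was found in 12 members (30.8%, beside 8.09% of all genes) and a GC box in 20 (51.3%, beside 46.2%). Of the 47 ISRE cores in members, 7 overlapped a GAS match. No entry was at hand for IFIT2, OAS2, OASL, USP18, MX2, GBP2, IFITM2, IRF7 and TRIM22. A match describes letters in this window and is not evidence of binding.

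The ISRE core was common both in members that were called higher in Sp1-si cells and in those that were not. Among members called higher in 1 or both pairs, 9 of 13 (69.2%) held an ISRE core, against 15 of 24 (62.5%) of the other members with a probe. A GC box was present in 5 of 13 (38.5%) against 14 of 24 (58.3%), and a GAS in 3 of 13 (23.1%) against 8 of 24 (33.3%). These shares were not tested. The 7 promoters of genes called higher or bright that follow, with IFI44L as a dim member that did not pass 2-fold, run 5′ to 3′ on the gene's strand up to the base before the start, with motif matches in capitals. Apart from that of IRF1, each print holds 140 of the 250 bases searched, and matches further upstream, of which IFI6 has an ISRE core and a GC box and IFI44L an ISRE core, are not in it.
IFIT5, chr10:89414428-89414567, plus strand, 2 ISRE cores on the reverse strand: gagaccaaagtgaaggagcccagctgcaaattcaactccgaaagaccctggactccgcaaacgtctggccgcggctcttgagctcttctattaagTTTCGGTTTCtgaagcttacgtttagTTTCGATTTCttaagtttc
IFITM1, chr11:313900-314039, plus strand, 1 ISRE core and 1 GAS: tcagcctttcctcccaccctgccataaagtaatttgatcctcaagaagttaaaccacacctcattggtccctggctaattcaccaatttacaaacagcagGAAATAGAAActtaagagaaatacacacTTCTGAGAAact
IFITM3, chr11:320861-321000, minus strand, 1 GC box and 2 ISRE cores: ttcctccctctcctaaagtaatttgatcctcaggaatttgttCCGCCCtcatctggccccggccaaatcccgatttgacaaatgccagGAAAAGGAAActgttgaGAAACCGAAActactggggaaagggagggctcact
BST2, chr19:17405631-17405770, minus strand, overlapping GAS and ISRE cores and a further GAS: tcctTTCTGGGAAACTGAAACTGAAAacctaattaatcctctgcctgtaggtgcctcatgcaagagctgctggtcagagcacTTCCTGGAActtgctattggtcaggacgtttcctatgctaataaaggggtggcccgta
IFI6, chr1:27672193-27672332, minus strand, 2 ISRE cores: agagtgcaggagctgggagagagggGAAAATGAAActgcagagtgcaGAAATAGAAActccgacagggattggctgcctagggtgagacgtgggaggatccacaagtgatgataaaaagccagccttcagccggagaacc
IRF1, chr5:132490774-132491023, minus strand, GC boxes around 1 GAS and no ISRE core: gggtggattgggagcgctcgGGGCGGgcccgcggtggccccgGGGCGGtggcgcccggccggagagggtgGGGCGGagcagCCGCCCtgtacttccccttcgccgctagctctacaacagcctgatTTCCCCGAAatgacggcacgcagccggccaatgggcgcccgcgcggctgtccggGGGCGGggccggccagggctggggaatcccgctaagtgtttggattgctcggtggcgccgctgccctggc
ISG20, chr15:88638876-88639015, plus strand, 1 GC box and 1 ISRE core: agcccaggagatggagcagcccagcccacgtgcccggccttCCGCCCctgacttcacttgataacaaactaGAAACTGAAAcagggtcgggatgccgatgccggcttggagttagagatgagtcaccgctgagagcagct
IFI44L, chr1:78620308-78620447, plus strand, 1 ISRE core: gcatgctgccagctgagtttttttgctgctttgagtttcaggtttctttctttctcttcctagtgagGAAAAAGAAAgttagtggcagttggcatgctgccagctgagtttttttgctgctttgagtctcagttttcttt

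**Figure D2:**
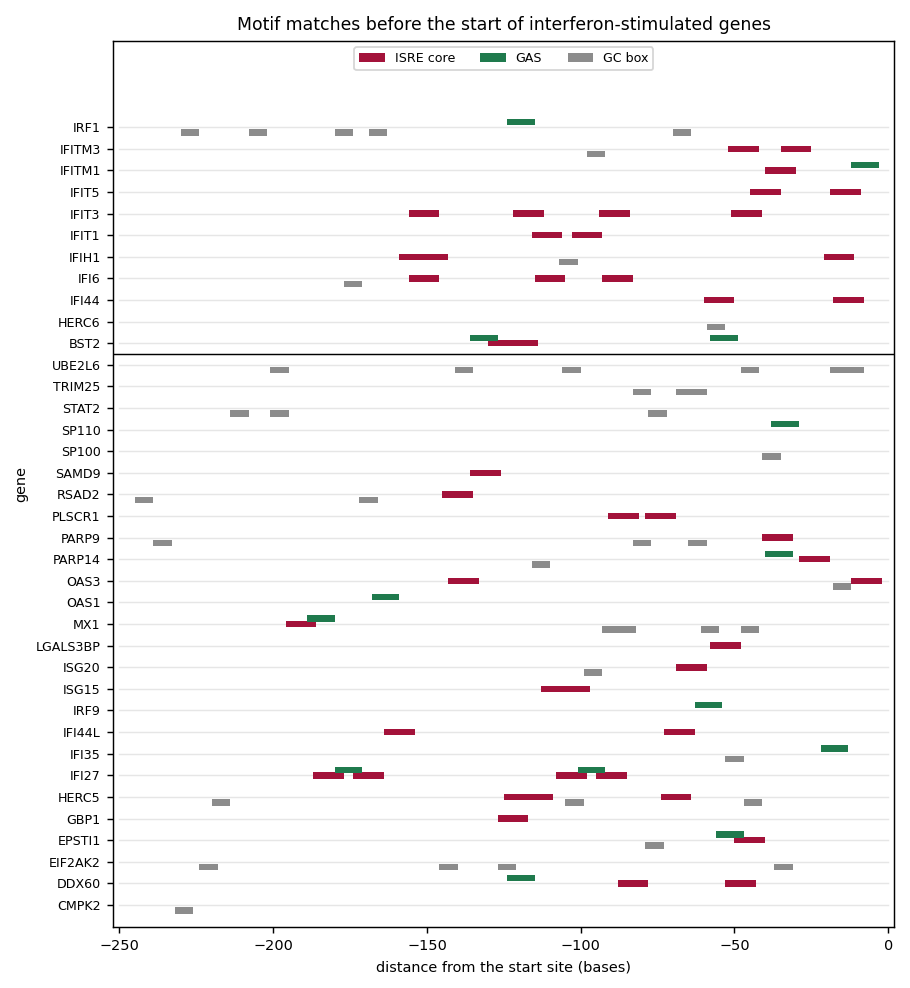
Position of ISRE core (red), GAS (green) and GC box (grey) matches in the 250 bases before each start site listed for an interferon-stimulated gene, in bases from the start, on either strand. Genes above the line were called higher in Sp1-si cells in 1 or both pairs, where 9 of 13 with an entry held an ISRE core against 15 of 24 of the other members with a probe, and genes with no match are not drawn.

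The IFIT family, proteins that bind foreign RNA and block its translation, had 2 of 4 genes called higher in Sp1-si cells without CoCl2 and 3 of 4 with it. Over all genes 6.21% and 7.17% were called higher, and within the family IFIT5 differed most. IFIT5 had a scaled signal of 132.3 with NS-si, 503.9 with Sp1-si, 52.61 with NS-si → CoCl2 and 263 with Sp1-si → CoCl2, that is, 3.81-fold higher after silencing without CoCl2 and higher still with it. Both Sp1-si arrays were above both NS-si arrays, and the second IFIT5 probe gave log2 ratios of 1.81 and 2.41 beside 1.93 and 2.32. Over the alternative ways of processing the signals, the IFIT5 ratio with CoCl2 lay between 1.22 and 2.72. IFIT1 had 379.8 with NS-si, 804.6 with Sp1-si, 163.1 with NS-si → CoCl2 and 315.2 with Sp1-si → CoCl2, with log2 ratios of 1.08 (0.051) without and 0.95 (0.043) with CoCl2. IFIT3, which forms a complex with IFIT1, had 116.5, 215.4, 61.13 and 129.1 in the same order and log2 ratios of 0.89 and 1.08. For both genes the Sp1-si → CoCl2 signal lay below that of untreated NS-si cells or close to it. IFIT2 had 449.5, 880.4, 199.4 and 486 on its brightest probe, with log2 ratios of 0.97 and 1.29. A second, dimmer IFIT2 probe gave 0.92 and -0.29, so that the 2 probes disagreed in direction with CoCl2, and the mean over both probes was 0.50.

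Among the oligoadenylate synthetases, which make the messenger that activates RNase L, only the catalytically inactive OASL was called higher by its brightest probe. OASL had 26.13 with NS-si, 65.67 with Sp1-si, 15.55 with NS-si → CoCl2 and 37.37 with Sp1-si → CoCl2, log2 ratios of 1.33 and 1.27 (0.15 each). These are dim signals. Under another background correction (normexp on the median signals, with 50 added to every signal) the OASL ratios were 0.55 and 0.09. OAS2 lay between 20.2 and 22.65 on the 4 arrays, with log2 ratios of 0.12 and -0.09. OAS1 was well above background on the Sp1-si array alone, at 11.55, at least 1.59-fold higher than in NS-si cells. The 2 probes of OAS3 differed, since the brighter had log2 ratios of 0.43 and 0.30 while the dimmer read 12.08 with NS-si and 64.88 with Sp1-si, a log2 ratio of 2.43 (0.17). That dimmer probe was not well above background in NS-si → CoCl2 cells and read 53.25 in Sp1-si → CoCl2 cells, at least 6.69-fold higher.

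IFIH1 encodes MDA5, a cytoplasmic sensor of long double-stranded RNA, and had 529.7 with NS-si, 879.6 with Sp1-si, 404.8 with NS-si → CoCl2 and 899.1 with Sp1-si → CoCl2. It was called higher with CoCl2 at a log2 ratio of 1.15 and stood at 0.73 without it. The other two sensors of the group stayed within 2-fold. EIF2AK2, the kinase PKR that halts translation on double-stranded RNA, had log2 ratios of 0.20 and -0.30, and DDX60, a helicase, had 0.10 and 0.40.

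ISG15, a ubiquitin-like protein joined to other proteins during an interferon response, was higher in both Sp1-si cultures by under 2-fold. Its signal was 5578 with NS-si, 8535 with Sp1-si, 5068 with NS-si → CoCl2 and 7898 with Sp1-si → CoCl2, with log2 ratios of 0.61 and 0.64. The enzymes that attach or remove ISG15 differed less. UBE2L6, the conjugating enzyme, had log2 ratios of 0.09 and -0.06, TRIM25, a ligase, 0.12 and 0.25, and USP18, which removes ISG15 and dampens the receptor, 0.14 and 0.20. HERC6, a ligase of the HERC family, had 633.1, 1080, 455.1 and 970.2 over NS-si, Sp1-si, NS-si → CoCl2 and Sp1-si → CoCl2 cells. It was called higher with CoCl2 alone, at 1.09 against 0.77 without CoCl2.

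None of the 4 interferon-induced GTPases was called in either pair. MX1 and MX2, both antiviral, were dim at 14.05 to 15.76 and 29.92 to 35.74. MX1, a gene often used to read an interferon response, had log2 ratios of -0.16 and 0.06 (spot SD 0.2). GBP1, a guanylate-binding protein, had 771 with NS-si, 1070 with Sp1-si, 713.8 with NS-si → CoCl2 and 1039 with Sp1-si → CoCl2, with log2 ratios of 0.47 and 0.54. GBP2 had 0.01 and -0.45.

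Of the membrane restriction factors, 4 of 5 tested were called higher in each pair, beside 6.21% without and 7.17% with CoCl2 over all genes. IFITM1, which blocks virus entry at the membrane, had 7146 with NS-si, 36302 with Sp1-si, 6936 with NS-si → CoCl2 and 32944 with Sp1-si → CoCl2. That was 5.08-fold higher without and 4.75-fold higher with CoCl2, log2 ratios of 2.34 (0.025) and 2.25 (0.023). IFITM3 had 15537, 36597, 13483 and 31249 in the same order, with log2 ratios of 1.24 and 1.21. IFITM2 had 7203, 14831, 6083 and 12790, with 1.04 and 1.07. The 3 IFITM genes are neighbouring, closely similar copies, and their probes may share target RNA, so that their calls may not be separate. BST2, or tetherin, which holds budding virus at the cell surface, had 183 with NS-si, 690.1 with Sp1-si, 201.2 with NS-si → CoCl2 and 920.9 with Sp1-si → CoCl2. It was 3.77-fold and 4.58-fold higher after silencing. PLSCR1, a phospholipid scramblase, did not pass 2-fold, with log2 ratios of -0.04 and -0.11.

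Of the transcription factors, IRF1 was the only one called higher. Its signal was 252.3 with NS-si, 1499 with Sp1-si, 212.9 with NS-si → CoCl2 and 822.6 with Sp1-si → CoCl2, 5.94-fold higher without and 3.86-fold higher with CoCl2. IRF1 drives its targets through ISRE-like sites and carries the GAS and GC boxes printed above in its own promoter. IRF7, the main inducer of interferon-alpha genes, had 4391, 8047, 6429 and 10988 over the same conditions, with log2 ratios of 0.87 and 0.77. IRF9 and STAT2 belong to the ISRE-binding complex. IRF9 had log2 ratios of 0.67 and 0.94, and STAT2 had 0.15 and -0.04.

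TRIM22, a nuclear antiviral ligase, differed most of the 46 genes by their brightest probes. Its brighter probe read 157.3 with NS-si, 1538 with Sp1-si, 109 with NS-si → CoCl2 and 1480 with Sp1-si → CoCl2. That was 9.77-fold higher without and 13.6-fold higher with CoCl2, log2 ratios of 3.29 and 3.76 (0.043 each), and the second probe gave 3.27 and 3.77. Other members of the nuclear body and chromatin group did not pass 2-fold. SP100, a component of nuclear bodies, had 0.17 and 0.05, SP110 had 0.07 and 0.39, and the ADP-ribosyltransferase family members PARP9 and PARP14 had -0.40 and 0.10, and 0.64 and -0.20.

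**Figure D3:**
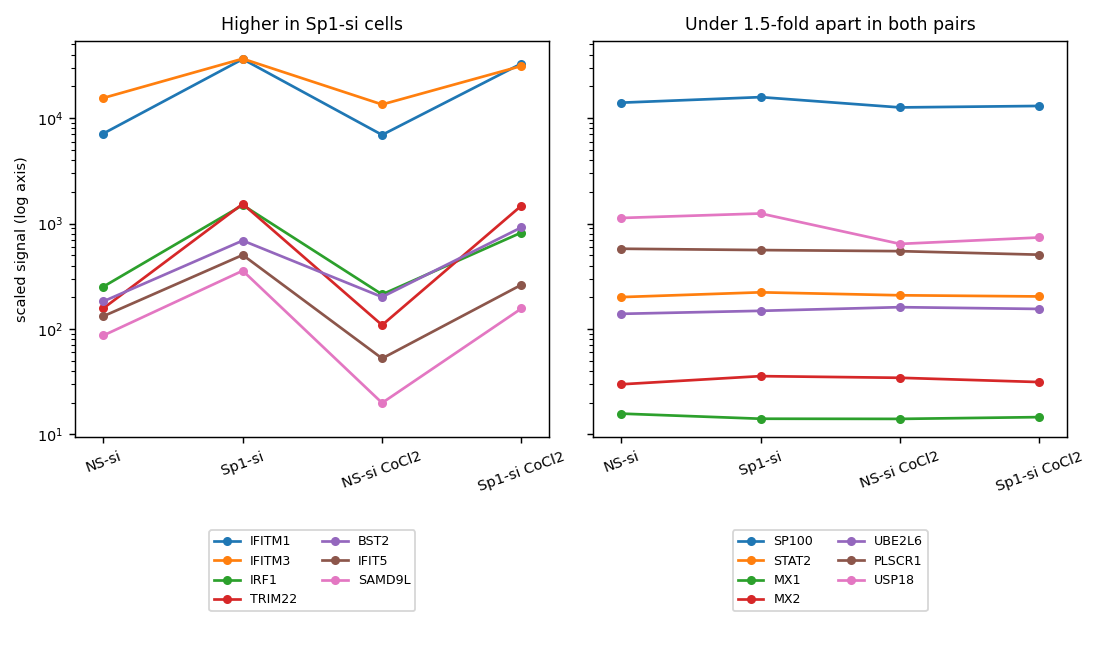
Scaled signal on a log axis over the 4 arrays for 7 genes higher in Sp1-si cells (left) and 7 genes under 1.5-fold apart in both pairs (right), by their brightest probe, lines joining the values of 1 gene. On the left both Sp1-si arrays lie above both NS-si arrays for each gene shown, as for TRIM22 at 1538 and 1480 against 157.3 and 109, while the lines on the right stay level apart from USP18, which was lower with CoCl2.

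Both measured genes of the cell death and mitochondria group were called higher without CoCl2, beside 6.21% over all genes. IFI6, a mitochondrial and endoplasmic reticulum protein that opposes apoptosis, had 429.1 with NS-si, 906.2 with Sp1-si, 436.1 with NS-si → CoCl2 and 972.9 with Sp1-si → CoCl2, with log2 ratios of 1.08 and 1.16. XAF1 opposes the apoptosis inhibitor XIAP, and its brightest probe read 42.5, 155.2, 51.42 and 53.29 over the same conditions. Only the Sp1-si array was high, so that XAF1 had a log2 ratio of 1.87 (0.096) without and 0.05 (0.11) with CoCl2. The second XAF1 probe gave 1.81 and 0.38. The third probe, not well above background in either NS-si culture, read 140.9 in Sp1-si and 65.4 in Sp1-si → CoCl2 cells, at least 19.4-fold and at least 8.22-fold higher.

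SAMD9L, a growth-restraining antiviral protein, had 86.88 with NS-si, 357.3 with Sp1-si, 19.91 with NS-si → CoCl2 and 156.6 with Sp1-si → CoCl2, 4.11-fold higher without and 7.86-fold higher with CoCl2. The NS-si → CoCl2 signal was dim, and the size with CoCl2 depended on the processing. Over the alternative settings the log2 ratio of SAMD9L with CoCl2 lay between 1.19 and 3.37. Its neighbour and relative SAMD9 did not follow, with log2 ratios of -0.12 and -0.13. IFI44 was dim, with 10.41 with NS-si and 27.21 with Sp1-si, a log2 ratio of 1.39 (0.25), and with CoCl2 it was at least 1.35-fold higher. IFI44L, IFI35 and LGALS3BP stayed within 2-fold at 0.29 and -0.01, 0.41 and 0.42, and 0.35 and 0.58. Going the other way, EPSTI1 had 27.71 in NS-si and 20.67 in NS-si → CoCl2 cells and was not well above background in either Sp1-si culture, at least 4.05-fold and at least 2.32-fold lower. ISG20, an RNA exonuclease, had 35472 with NS-si, 25024 with Sp1-si, 42948 with NS-si → CoCl2 and 26910 with Sp1-si → CoCl2. Its ratios of -0.50 and -0.67 did not pass 2-fold, but both NS-si arrays were above both Sp1-si arrays.

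Several of these calls fell under 2-fold with normexp on the median signals, which changes the background correction and adds 50 to every signal. The added 50 by itself shrinks the ratios of dim probes, and its part was not separated from that of the correction. With normexp, 9 members were called higher without CoCl2 and 10 with it. IFIT1 (0.98), IFI6 (just under 1), OASL and IFI44 (0.44) were then under 2-fold in the first pair, and IFIT2 (0.98), IFIT3 (0.53), OASL and HERC6 (0.95) in the second. EPSTI1 stood at -0.34 and -0.63. With no scaling between arrays, IFITM2 without CoCl2 stood at 0.99 and EPSTI1 with CoCl2 at -0.82.

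**Figure D4:**
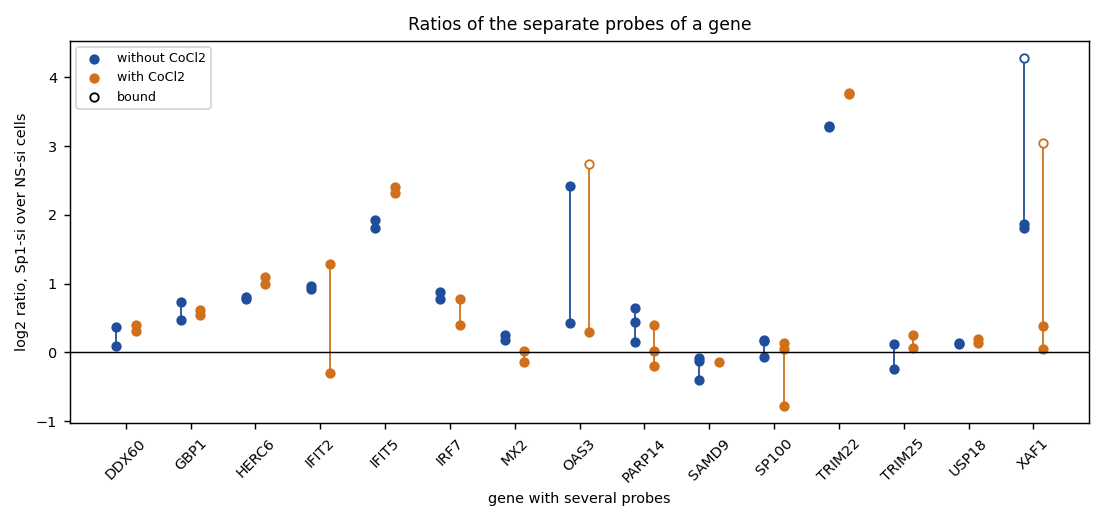
Log2 ratio of Sp1-si over NS-si cells for the separate probes of interferon-stimulated genes with several measured probes, without CoCl2 (blue) and with CoCl2 (orange), open circles being bounds and lines joining the probes of 1 gene. Probes of TRIM22, IFIT5 and HERC6 lie close together, while those of OAS3, XAF1 and, with CoCl2, IFIT2 lie more than 1 apart.

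Of the 46 genes, 17 had several probes. In 13 of them 2 or more probes were well above background on all 4 arrays, and in 11 of these the probes stayed within 1 of each other on the log2 scale in all 4 comparisons. IFIT2 and PARP14 were the exceptions. PARP14 read -1.15 for Sp1-si → CoCl2 over Sp1-si cells on its brightest probe but -0.34 and 0.06 on the other two.

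After CoCl2 a few members were called lower and none higher. In NS-si cells, 0 of 43 genes were called higher and 5 were called lower, beside 4.22% and 3.54% over all genes, with a median log2 ratio of -0.19 over 42 members. In Sp1-si cells, 0 of 43 were called higher and 6 lower, beside 3.67% and 3.94% over all genes, with a median of -0.22. The median over all genes was 0.00 in both. IFIT1, SAMD9 and SAMD9L were called lower in both kinds of cell, 3 of 42 members, beside 1.47% over all genes, and no member was called higher in both, beside 2.24%. With normexp on the median signals, and the 50 it adds to every signal, none of the 5 calls in NS-si cells stood. The ratios were then -0.95 for IFIT1, -0.94 for IFIT2, -0.55 for IFIT5, -0.84 for SAMD9 and -0.67 for SAMD9L. In Sp1-si cells 4 of the 6 calls stood with it, and SAMD9 (-0.96) and IFI44 (-0.45) were under 2-fold.

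SAMD9L, with the 4 signals given above, had log2 ratios of -2.13 (0.074) without and -1.19 (0.075) after Sp1 silencing, 4.36-fold and 2.28-fold lower. SAMD9 had 179.5 with NS-si, 164.7 with Sp1-si, 71.72 with NS-si → CoCl2 and 65.44 with Sp1-si → CoCl2, with ratios of -1.32 and -1.33. Its 2 CoCl2 arrays were both below its 2 arrays without CoCl2, whichever siRNA was used. IFIT1 had -1.22 and -1.35, while IFIT2 and IFIT5 had -1.17 and -1.33 under the control siRNA and -0.86 and -0.94 after Sp1 silencing. XAF1 (-1.54), IFI44 (-1.34) and PARP14 (-1.15) were called lower in Sp1-si cells alone. Members that stood higher after CoCl2, within 2-fold, included IRF7, at 0.55 and 0.45, and BST2, at 0.14 and 0.42. IFITM1, at -0.04 and -0.14, and IFI6, at 0.02 and 0.10, were among those that moved least.

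The CoCl2 ratio of Sp1-si cells minus that of NS-si cells uses all 4 arrays. It passed 1 in size for 1 of 41 members, XAF1, which was lower, beside 2.86% lower and 0.98% higher over all genes, and its median over members was 0.01. XAF1 had a difference of -1.82 (0.15) on its brightest and -1.43 on its second probe. SAMD9L had 0.94 (0.11), PARP14 -0.84 and IRF1 -0.62 (0.059).

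Of 54 other genes of the interferon pathway, 48 had a probe and 32 were well above background on all 4 arrays. Without CoCl2, 4 of 34 were called higher in Sp1-si cells and 1 lower, and with CoCl2 3 of 35 were called higher and 1 lower. Those shares lie closer to the background given above than the members' did. Of 16 ligand genes with a probe, 10 were well above background on no array, IFNB1 and IFNG among them, and 4 were on all 4 arrays. Of these 4, IFNE alone stood higher in Sp1-si cells, within 2-fold. It had 373.2 with NS-si, 518.9 with Sp1-si, 332.2 with NS-si → CoCl2 and 463.1 with Sp1-si → CoCl2, a log2 ratio of 0.48 in each pair. IFNL2 had -0.29 and -0.34, and the dim IFNL1 had -0.18 and -0.09. IFNA4 was called lower with CoCl2, at -1.04, with signals of 318.7 with NS-si, 278.6 with Sp1-si, 422.3 with NS-si → CoCl2 and 205.5 with Sp1-si → CoCl2, and the interferon-alpha genes are near-identical copies that a probe may not separate.

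All 6 receptor genes were detected. IFNLR1, the specific chain of the interferon-lambda receptor, had 309.7 with NS-si, 137.6 with Sp1-si, 281.9 with NS-si → CoCl2 and 141.7 with Sp1-si → CoCl2, with log2 ratios of -1.17 (0.062) and -0.99. IL10RB, its partner chain, had -0.91 and -0.11. For the type I receptor, IFNAR1 had -0.81 and -0.23, and IFNAR2 had 0.61 and 0.23 and was called lower with CoCl2 in Sp1-si cells, at -1.14 (0.15). IFNGR1 and IFNGR2, the interferon-gamma receptor, had 0.42 and 0.28, and -0.16 and 0.11.

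RIGI, the sensor of RNA with a 5′ triphosphate, was called higher in both pairs, with 493.7 with NS-si, 1017 with Sp1-si, 454.2 with NS-si → CoCl2 and 980.9 with Sp1-si → CoCl2. The adaptor MYD88 was called higher with CoCl2, at 1.05 against 0.37 without. IRF2, which competes with IRF1 for its sites, was called higher without CoCl2, at 1.22 against 0.88 with it. SOCS1, an inhibitor of JAK kinases, had 507.4, 3063, 378.4 and 1087 over NS-si, Sp1-si, NS-si → CoCl2 and Sp1-si → CoCl2 cells, with log2 ratios of 2.59 (0.032) and 1.52 (0.035). A second SOCS1 probe gave 1.87 and 0.18. The related SOCS3 had 853.7, 3028, 1227 and 2128 in that order, with 1.83 and 0.80. A second SOCS3 probe gave 0.82 and 0.62. Both inhibitors stood higher in Sp1-si cells on each of these probes, but the probes of each gene disagreed in size. With CoCl2 the second SOCS1 probe stood at only 0.18 (0.086).

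With CoCl2, 2 of 35 pathway genes were called higher and 1 lower in NS-si cells, and 2 of 34 higher and 2 lower in Sp1-si cells, beside 4.22% and 3.54%, and 3.67% and 3.94%, over all genes. TICAM1, the adaptor of TLR3, was higher at 1.31 and 1.27, and TBK1, the kinase that activates IRF3, at 1.22 and 1.31. TLR3 was called lower in NS-si cells, at -1.04, and had -0.93 in Sp1-si cells, and SOCS1 was called lower in Sp1-si cells, at -1.49. The differences of the CoCl2 ratios for SOCS1 and SOCS3 were -1.07 and -1.03, the only pathway genes past 1 in size by their brightest probes. The second SOCS1 probe had -1.69 and the second SOCS3 probe -0.20 (0.13), and a second probe of MYD88 also passed 1, upwards, where its brightest had 0.67.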

How the data were processed

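RNA of 4 OVSAYO cultures was read on Agilent 4x44K one-colour arrays, 1 for each condition. The deposited intensity values are processed signals that the authors' scanner software (Agilent Feature Extraction 10.5.1.1, per the file headers) gave after background subtraction and detrending, with no normalization between arrays. The authors' value table is the same signal multiplied by 1 constant per array and was used as an alternative only. From 41000 non-control probes, outlier spots were left out, spots of a probe were averaged, log2 signals were centred on each array's 75th percentile and returned to the arrays' common scale. Symbols came from RefSeq accessions, which named 26222 probes. A probe was well above background where at least 50% of its spots were. A side not well above background was set to the higher of its own signal and the array's lowest signal well above background. No p-value was computed, since each group had 1 array, which limits the precision of every value. The array annotation predates the promoter table, and no array coordinates were used. Named genes are members past 1 in size in any comparison or with discordant probes, the 3 brightest members, those on no array, SP1, and pathway genes past 1, with the receptors. Some items are not reported here. Further members and ligand genes were named to complete each role, after their values were seen. The members and lists were chosen with earlier results of these data known. The labels give 40 h of culture and 4 h of CoCl2, and a figure legend of the paper gives a shorter culture before CoCl2. Alternatives changed the scaling, background correction, probe choice, filter and fold. Python 3.11.15, numpy 2.4.6, pandas 2.3.3, R 4.3.3 and limma 3.58.1 were used, and the scripts were tested on simulated data.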

Additional observations from a re-analysis of the deposited data

How the results depend on the processing

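The 40 called ratios of named genes gave 436 values under the alternatives. Of these, 24 were below 1 in size (17 with normexp on the median signals, 4 with no scaling, 2 with the mean over probes and 1 with quantile normalization). None had the opposite sign, which is a weak check. The ratios were chosen for being at least 1 in size, and many alternatives shift whole arrays or repeat the same values. Single dimmer probes were not an alternative, and that of IFIT2 had -0.29 with CoCl2. Normexp on the median signals was chosen after the data were seen, because the planned column of mean signals was not in the tables used here. It adds 50 to every signal, which by itself shrinks the ratios of dim probes. Without CoCl2 the members' median Sp1-si ratio was 0.49 with no scaling, 0.64 with the mean over probes, 0.47 over genes well above background on all arrays and 0.46 with normexp. The number lower was 0 in these last 2 settings, and 22 were higher at 1.5-fold. With CoCl2 the median was 0.47 with quantile normalization, 0.53 with median scaling, 0.82 with no scaling, 0.48 in the authors' table, 0.58 with the mean over probes and 0.29 with normexp. The number lower was 0 with quantile normalization, no scaling, the filter on all arrays and normexp, and 2 at 1.5-fold. The CoCl2 median in NS-si cells was -0.41 with no scaling, -0.23 with the percentile over detected probes and -0.26 in the authors' table, with 11 lower at 1.5-fold and 0 with normexp. In Sp1-si cells it was -0.11 with median scaling, 0.0092 with no scaling and -0.27 in the authors' table, with 13 lower at 1.5-fold. The difference of the CoCl2 ratios had a median of 0.10 with median scaling, 0.46 with no scaling and -0.082 with normexp, and 1 member (SAMD9L) was higher with quantile normalization, median scaling and no scaling. With no scaling the median over all genes itself moved to 0.38 with CoCl2 for Sp1-si over NS-si, to -0.22 and 0.23 for CoCl2 in NS-si and Sp1-si cells, and to 0.47 for the difference. For CoCl2 in Sp1-si cells, PARP14 stood at -0.48 with the mean over probes and -0.92 with no scaling, and SAMD9L at -0.96 with no scaling. EPSTI1 with CoCl2 stood at -0.96 with quantile normalization. The cause of these shifts was not tested. No paired analysis was possible because each condition had 1 array. Genes near background, such as OASL, IFI44 and EPSTI1, are the least certain.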

Other observations

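Interferon also raises much of the antigen presentation machinery. The immunoproteasome subunits, which cut peptides for HLA class I, were the 3 genes called higher in Sp1-si cells, in both pairs, of a list of 14 antigen processing genes. Over all genes 6.21% were called higher without CoCl2, 7.17% with it and 4.28% in both pairs. PSMB10 had a scaled signal of 3861 with NS-si, 12264 with Sp1-si, 2579 with NS-si → CoCl2 and 9939 with Sp1-si → CoCl2, with log2 ratios of 1.67 and 1.95. PSMB8 had 441.3, 1295, 390.4 and 1129 in that order, with 1.55 and 1.53, and PSMB9 had 2598, 5312, 2296 and 4926. B2M, the class I light chain, had log2 ratios of 0.06 and 0.12. Between CoCl2-treated and untreated cells, 0 of 14 were called, beside 4.22% called higher and 3.54% lower over all genes in NS-si cells and 3.67% and 3.94% in Sp1-si cells. The median log2 ratio of the list was 0.30 and 0.31, with 11 of 14 above 0 in each kind of cell, against 0.00 over all genes.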
